A study of Mus musculus with 6 samples.

Results

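The potassium channel genes of the embryonic cortex comprised 88 of the 22180 genes measured. A gene was included if its symbol began with Kcn, followed by 1 or more lower case letters and a number, and if a transcript cluster of the array carried that symbol alone. *Kcnj8* was left out by the same rule. Where a gene had more than 1 cluster, the cluster with the highest mean was used. The 88 genes comprised 36 voltage-gated (Kv) subunits, 8 genes of the calcium-activated group and its relatives (KCa), 13 inward rectifiers (Kir), 13 tandem-pore leak channels (K2P), 16 auxiliary subunits and 2 noncoding RNAs, *Kcnq1ot1* and *Kcnd3os*. RefSeq lists 8 further symbols that fit the pattern, and these were not analysed here.

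Expression was measured in dorsal cortex at embryonic day 18 (E18), which the labels place in the presumptive somatosensory area, with 1 Affymetrix Mouse Gene 2.0 ST array for each of 3 control and 3 mutant embryos. Control embryos were GSK-3 alpha -/- beta loxp/loxp, so that both groups lacked GSK-3 alpha. Mutant embryos, GSK-3:Nex (*Gsk3:Neurod6*), also carried *Neurod6-Cre*, which recombines floxed *Gsk3b* in intermediate progenitors and young excitatory neurons. Interneurons, glia and vessel cells do not use this driver, the mice had a mixed genetic background, and the embryos of 2 litters are not assigned to litters in the sources used here. No group carried Cre with intact *Gsk3b*, so that the effects of the Cre allele and of the loss of *Gsk3b* cannot be told apart.

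Potassium channels let potassium leave the cell and thereby set the resting potential and end the action potential. Kv channels open on depolarization, KCa channels link calcium or sodium entry to an outward current, Kir channels pass current best near rest, and K2P channels carry the background leak. Auxiliary subunits alter the gating and the surface delivery of the pore proteins. In fetal cortex the currents of young neurons are still small and grow as the cells leave the ventricular zone and mature. The arrays read the RNA of these genes, whereas channel phosphorylation and current are outside the measurement.

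The values are log2 levels. Probes differ in brightness, so that levels of 2 genes cannot be ranked, and each gene was set only against a background level. It was taken as the 95th percentile of the mean levels of 1428 olfactory, vomeronasal and taste receptor genes, 7.35. Of the 88 potassium channel genes, 61 (69.3%) lay above it, against 12941 (58.3%) of all genes. With the 99th percentile as the level the order turned, to 24 of 88 (27.3%) against 33.6% of all genes. Differences are given as mutant minus control with the standard error from limma, and p values were adjusted over all 22180 genes. In bulk tissue, fewer cells of a type and less RNA per cell cannot be told apart.

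Libraries were even. The lower quartile of the 6 arrays ranged from 6.17 to 6.24 and the upper from 8.90 to 8.96. Mutant replicate 6 stood apart in *Xist*, the RNA of the inactive X chromosome, with 11.89 against 5.77 to 6.18 on the other arrays. The *Gsk3b* cluster (12.01 ± 0.02 in controls and 12.06 ± 0.08 in mutants, SD, n = 3 each) summarizes the gene and does not isolate the deletion of its floxed part. *Neurod6*, the gene of the Cre driver, had 11.81 to 11.91 in controls and 11.21 to 11.32 in mutants (adjusted p = 0.0977 from limma). Against 7.32% of all genes with an unadjusted p under 0.05 (3.81% lower and 3.51% higher), the marker lists stood as follows. In mutants, 12 of 17 measured genes of dividing cells had such a p and lower values, with a mean level of 9.47 to 9.61 in controls and 9.26 to 9.39 in mutants. The same held for 5 of 8 intermediate progenitor genes (8.99 to 9.12 and 8.80 to 8.94), 3 of 9 upper layer genes (10.35 to 10.46 and 10.18 to 10.38) and 2 of 10 radial glia genes (10.23 to 10.29 and 10.18 to 10.29). Of the astrocyte list, 3 of 9 had an unadjusted p under 0.05 (8.01 to 8.15 and 8.12 to 8.21), 2 of them higher and 1 lower in mutants, and of the oligodendrocyte list 1 of 6, higher (7.99 to 8.13 and 8.16 to 8.23). In the deep layer, interneuron, striatal, thalamic, endothelial, pericyte, microglia, meningeal and choroid plexus lists, 0 genes did. The part of these lists in the results below was not tested.

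**Figure D1:**
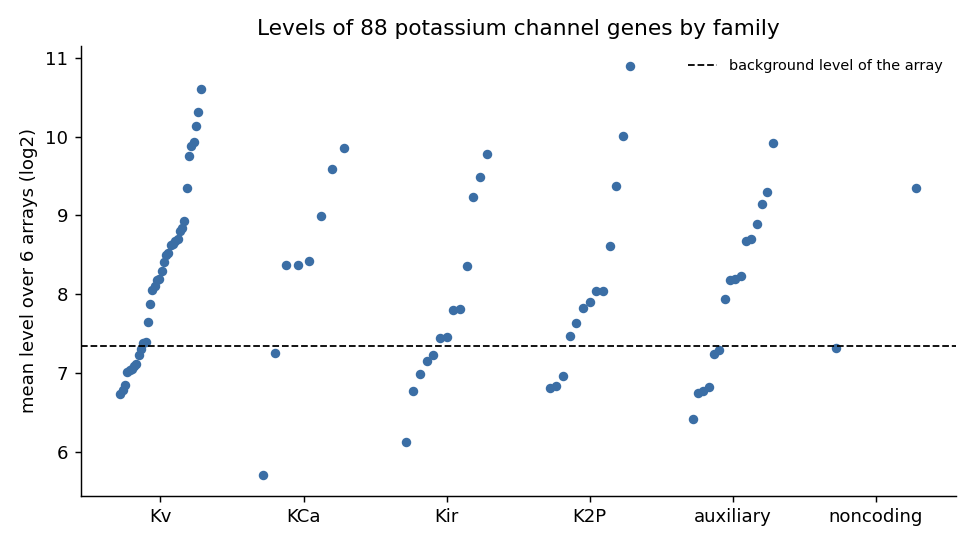
Mean log2 level over the 6 arrays (vertical axis) of each potassium channel gene (1 point per gene, ordered by level within a family along the horizontal axis), with the background level of 7.35 as a dashed line. Of the Kv genes 26 of 36 lie above the line, of KCa 6 of 8, of Kir 8 of 13, of K2P 10 of 13, of the auxiliary subunits 10 of 16 and of the noncoding RNAs 1 of 2, against 58.3% of all genes. Heights of different genes are not comparable as amounts of RNA.

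Most branches of the potassium channel family had genes above the background level in E18 cortex, a level that 58.3% of all genes passed. Above it were 26 of 36 Kv genes, 6 of 8 KCa genes, 8 of 13 Kir genes, 10 of 13 K2P genes and 10 of 16 auxiliary subunits. All 3 *Kcnd* genes, which carry the A-type current of dendrites, all 3 measured *Kcnc* genes, all 4 *Kcnip* genes and all 3 *Kcnab* genes were among them. Of the 5 measured *Kcne* genes, small single-span subunits, 1 was above it (*Kcne1l*). Genes below it include *Kcnu1* of sperm, at 5.56 to 5.73 in controls and 5.66 to 5.88 in mutants, and *Kcna5*, at 6.61 to 6.71 and 6.67 to 6.90. With the 99th percentile (8.80) as the level, even the highest means of the *Kcnc* (8.67) and *Kcnab* (8.68) genes lay below it. So did *Kcnd1* (8.19), *Kcnip2* (8.19) and *Kcnip4* (8.23). Replicates were close, with a median SD within groups of 0.10 over the 88 genes and 0.09 over all genes.

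The comparison of *Gsk3:Neurod6* with control cortex asked which of these genes differ once GSK-3 is lost from excitatory neurons. None of the 88 genes passed an adjusted p of 0.05 in limma (lowest 0.462), a threshold that 0.00451% of all genes passed. None differed by 1.5-fold, the criterion of the methods, which 0.117% of all genes reached. The differences ranged from -0.32 for *Kcnh5* to 0.31 for *Kcns1*. At an unadjusted p under 0.05 there were 12 genes (13.6%), where 7.32% of all genes had such a p. Of these, 6 were higher (6.82%, against 3.51% of all genes) and 6 lower in mutants (6.82%, against 3.81%). Controls and mutants were fully separate for 17 genes (19.3%), against 13.3% of all genes, 10 of them higher (11.4%, against 6.34%) and 7 lower (7.95%, against 6.93%). The 12 genes became 7 without mutant replicate 5 and 7 with an unmoderated test, and without control replicate 2 the 6 higher genes became 2. Leaving out mutant replicate 5 brought the share of the potassium channel genes to 7.95%, when that of all genes was 7.49%.

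**Figure D2:**
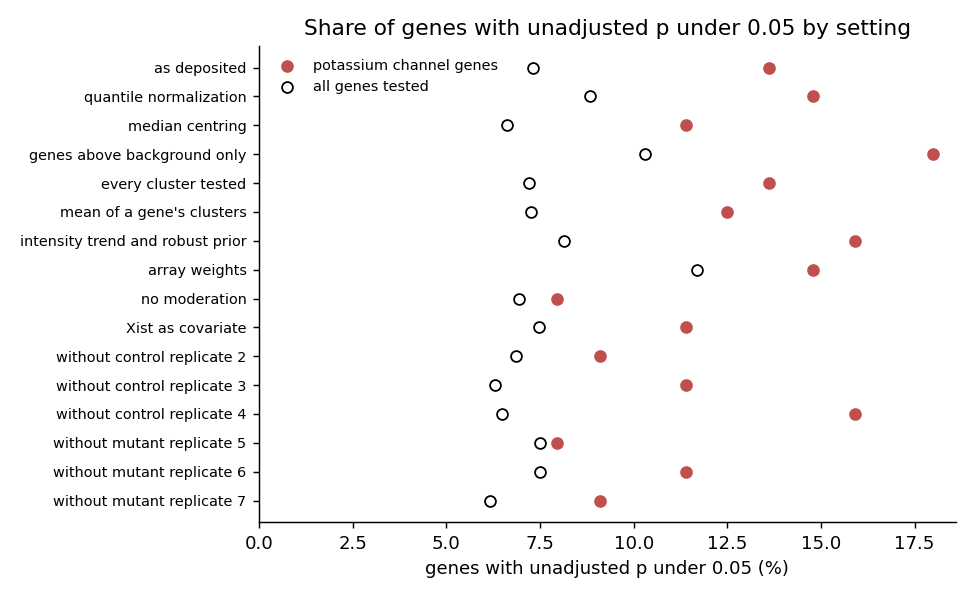
Share of genes with an unadjusted p under 0.05 (percent, horizontal axis) among the potassium channel genes (filled points) and all genes tested (open points) for the deposited values and 15 alternative settings (rows). The filled point lies right of the open one in each row. The gap is widest without control replicate 4 (15.9% against 6.48%) and narrowest without mutant replicate 5 (7.95% against 7.49%). The shares are 18.0% against 10.3% with genes above background only and 7.95% against 6.93% with no moderation.

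Group means lay above those of controls for 56 of the 88 genes (63.6%), against 49.7% of all genes, and the median difference was 0.03 against -0.0007 over all genes. By family, means were above controls for 26 of 36 Kv genes (median 0.04), 3 of 8 KCa genes (-0.03), 7 of 13 Kir genes (0.02), 10 of 13 K2P genes (0.06) and 9 of 16 auxiliary subunits (0.02). These medians carry no test, and those of 3 families turned sign in some settings. The KCa median was 0.0257 with *Xist* as a covariate and 0.0059, 0.0079 and 0.0274 without control replicate 2, control replicate 4 and mutant replicate 6. The Kir median was -0.0131 with genes above background only, -0.0018 with array weights, and -0.0372 and -0.0072 without control replicate 2 and mutant replicate 5. The auxiliary median was -0.006 with genes above background only, and -0.0022 and -0.0107 without mutant replicates 5 and 7.

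**Figure D3:**
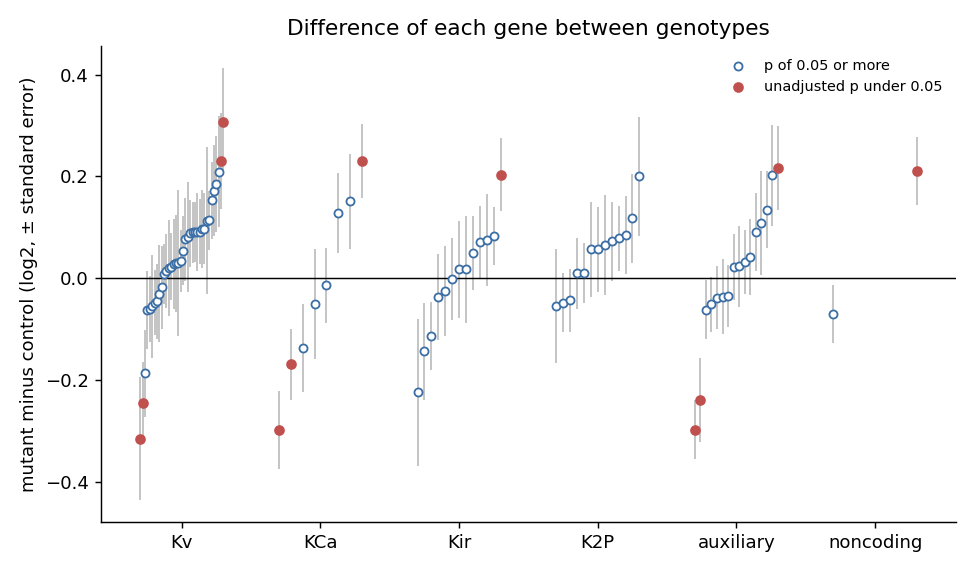
Difference between mutant and control means (log2, vertical axis) with its standard error (bars) for each potassium channel gene, by family along the horizontal axis, with red points for the 12 genes at an unadjusted p under 0.05. These genes are 4 of 36 Kv, 3 of 8 KCa, 1 of 13 Kir, 0 of 13 K2P, 3 of 16 auxiliary and 1 of 2 noncoding genes. All 12 lie within 0.32 of zero, and 7.32% of all genes had such a p.

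Among the Kv genes, *Kcnb2* encodes a delayed rectifier pore subunit of the Kv2 group. It had 9.44, 9.73 and 9.76 in controls and 9.83, 9.95 and 9.84 in mutants. All mutants lay above all controls, and control replicate 2 was the low array. The difference was 0.23 (standard error 0.09, adjusted p = 0.663 from limma), or 0.13 without control replicate 2. *Kcng3*, an electrically silent subunit that modifies Kv2 channels, had 8.66, 8.69 and 8.93 in controls and 8.52, 8.52 and 8.50 in mutants. The mutants were nearly equal and below every control, with a difference of -0.24 (standard error 0.08, adjusted p = 0.567), which was -0.16 without control replicate 4. Of the 10 silent subunits measured (*Kcnf*, *Kcng*, *Kcns* and *Kcnv*), 7 had higher means in mutants. *Kcnf1*, named after its values were seen, had 7.31, 7.36 and 7.38 in controls and 7.42, 7.39 and 7.51 in mutants, a narrow separation (difference 0.09). *Kcns1*, another of them and below the background level, had 6.73, 7.17 and 6.93 in controls and 7.24, 7.22 and 7.28 in mutants. Its difference was 0.31 (standard error 0.11, adjusted p = 0.586), and 0.20 without control replicate 2.

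*Kcnh5* and *Kcnh1* encode the ether-a-go-go channels of the brain. *Kcnh5* had 8.87, 9.08 and 8.62 in controls and 8.40, 8.56 and 8.65 in mutants, so that mutant replicate 7 lay above control replicate 4. Its difference was -0.32 (standard error 0.12, adjusted p = 0.636), and -0.20 without control replicate 3. *Kcnh1*, below the background level, had 6.76 to 6.96 in controls and 6.54 to 6.79 in mutants (difference -0.19, standard error 0.09, adjusted p = 0.711), and a difference of -0.12 without mutant replicate 6. Of the 8 *Kcnh* genes, 4 had lower and 4 higher means in mutants, up to 0.17 for *Kcnh8*.

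The M-current subunit gene *Kcnq3*, whose current restrains repetitive firing, had 10.57, 10.54 and 10.54 in controls and 10.60, 10.72 and 10.67 in mutants. The controls were nearly equal and the mutants lay above them, with a difference of 0.11 (standard error 0.06, adjusted p = 0.732). Its interval reached from -0.02 to 0.25. Below the background level, *Kcna5*, of the Shaker group, had a difference of 0.15 (adjusted p = 0.726) and the silent subunit gene *Kcng4* one of 0.18 (adjusted p = 0.731). The difference of *Kcng4* became 0.08 without mutant replicate 7. Of the Shaker genes, 7 of 8 had higher means in mutants, by at most 0.15, and the differences of all 8 lay between -0.03 and 0.15. Among them *Kcna6* had 8.44, 8.48 and 8.45 in controls and 8.48, 8.60 and 8.56 in mutants (difference 0.09), so that the groups touched without overlapping. *Kcna2*, an axonal channel gene, had 8.38, 8.48 and 8.37 in controls and 8.44, 8.39 and 8.43 in mutants, a difference of 0.01 with an interval from -0.13 to 0.15. For *Kcnc1*, a fast delayed rectifier of interneurons, the values were 8.61 to 8.68 and 8.61 to 8.74, and the interval of the difference ran from -0.11 to 0.18.

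**Figure D4:**
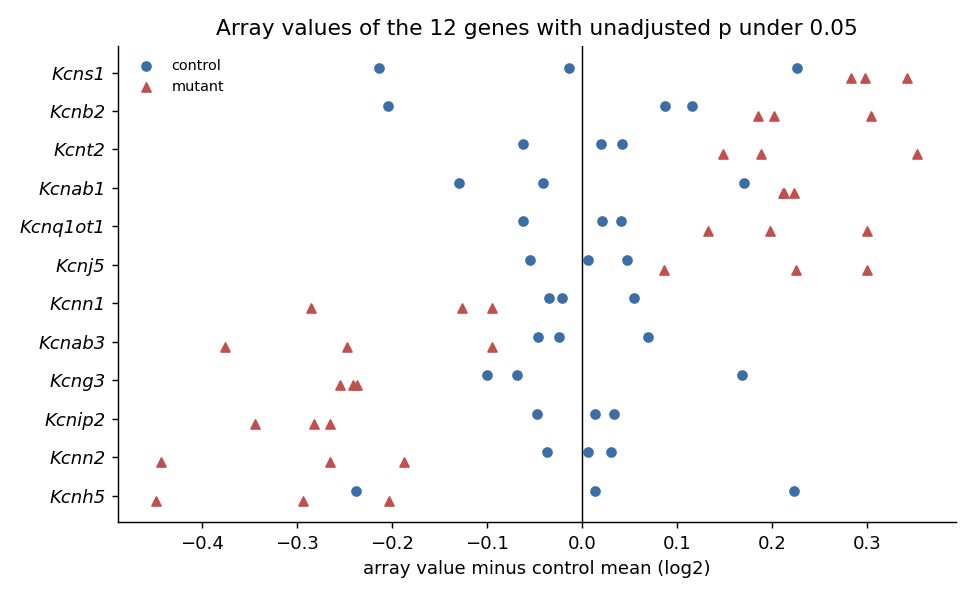
Value of each array minus the control mean (log2, horizontal axis) for the 12 potassium channel genes with an unadjusted p under 0.05 (rows), with circles for the 3 controls and triangles for the 3 mutants. The genotypes overlap only for *Kcnh5*, and among the controls of *Kcnb2* and *Kcns1* the farthest low point is control replicate 2.

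The A-type current is carried by a complex of Kv4 pores (*Kcnd*), calcium-binding KChIP subunits (*Kcnip*) and the membrane proteins DPP6 and DPP10. *Kcnip2*, which encodes KChIP2, had the smallest p of the 88 genes. Its values were 8.35, 8.29 and 8.37 in controls and 8.06, 7.99 and 8.07 in mutants. Replicates lay close together in both groups (SD 0.04 each), and every mutant was below every control. The difference was -0.30 (standard error 0.06, 95% confidence interval -0.43 to -0.16), with an adjusted p of 0.462 from limma. The unadjusted p stayed under 0.05 in all 15 alternative settings, in which the difference ranged from -0.32 to -0.27 and the adjusted p from 0.102 to 0.692.

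The pore genes of this complex lay on the other side of zero. *Kcnd2* had 9.97, 10.26 and 10.39 in controls and 10.35, 10.50 and 10.40 in mutants, where only control replicate 2 stood clearly below the rest. The difference of 0.21 (interval -0.04 to 0.46) became 0.09 without that array. *Kcnd1* and *Kcnd3*, given here after their values were seen, had differences of 0.10 each, with overlapping groups and an unadjusted p under 0.05 in 0 of 15 settings. Across these settings the difference ranged from 0.03 to 0.15 for *Kcnd1* and from 0.05 (without control replicate 2) to 0.13 for *Kcnd3*. *Dpp6*, from the list of channel partners, had 9.41, 9.61 and 9.66 in controls and 9.83, 9.87 and 9.84 in mutants. The mutants were above every control, with a difference of 0.29 (standard error 0.08, adjusted p = 0.495), and 0.21 without control replicate 2. *Dpp10* had 0.13 (standard error 0.07). Of the other KChIP genes, *Kcnip1* had -0.03, *Kcnip3* -0.06 and *Kcnip4* 0.11, and the values of the groups overlapped for all 3. The difference of *Kcnip4* was 0.0099 without mutant replicate 6 and 0.04 without control replicate 2.

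The *Kcnab* genes encode cytoplasmic beta subunits of the Shaker channels, of which beta1 speeds inactivation. *Kcnab1* had 8.44, 8.74 and 8.53 in controls and 8.78, 8.80 and 8.79 in mutants. The 3 mutants lay together above the spread of the controls, with a difference of 0.22 (standard error 0.08, adjusted p = 0.637), and 0.15 without control replicate 2. *Kcnab3* had 8.13, 8.01 and 8.04 in controls and 7.81, 7.97 and 7.69 in mutants. Here the mutants lay below, with a difference of -0.24 (standard error 0.08, adjusted p = 0.586), which was -0.17 without mutant replicate 7 and -0.10 with the mean of its 2 clusters. *Kcnab2* had 8.14 to 8.21 and 8.13 to 8.28, a difference of 0.03 (interval -0.11 to 0.18). *Lgi1*, a secreted protein that acts on Shaker channels at synapses and the partner gene with the smallest p, had 9.36, 9.54 and 9.60 in controls and 9.77, 9.88 and 9.79 in mutants. Its difference was 0.32 (standard error 0.08, adjusted p = 0.495), and 0.24 without control replicate 2.

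Of the small single-span subunits, *Kcne1*, a partner of *Kcnq1* in heart and inner ear, had a difference of 0.20 (standard error 0.10, adjusted p = 0.723), or 0.10 without control replicate 3, and *Kcne2* had 0.09 (interval -0.08 to 0.27). The difference of *Kcne2* was 0.04 without control replicate 4, 0.05 without mutant replicate 5 and 0.14 without control replicate 2. Both genes lie below the background level. All 5 *Kcne* genes had higher means in mutants, and the groups overlapped for each of them. Among all genes, 49.7% had higher means and 13.3% had fully separate groups.

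**Figure D5:**
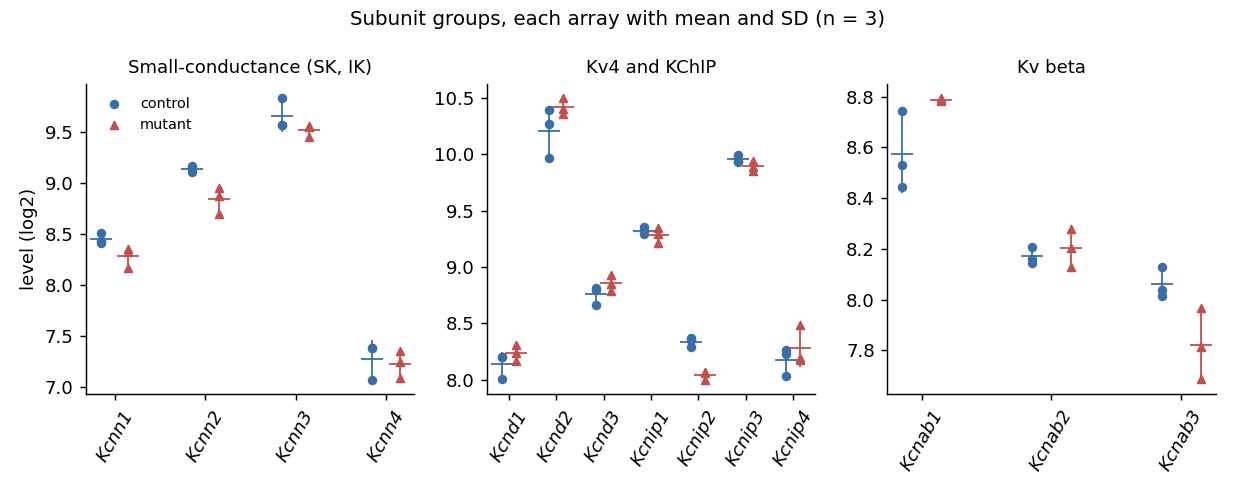
Log2 level (vertical axis) on each array for the *Kcnn* genes, the *Kcnd* and *Kcnip* genes and the *Kcnab* genes (panels have separate vertical scales), with circles for controls, triangles for mutants, a horizontal bar for the mean and a vertical line for the SD (n = 3). *Kcnn1*, *Kcnn2* and *Kcnn3* are lower in every mutant than in every control, *Kcnip2* and *Kcnab3* likewise, and *Kcnab1* is higher. For *Kcnn3* the groups nearly touch, with the lowest control at 9.57 and the highest mutant at 9.56. Fully separate groups were found for 13.3% of all genes (6.93% lower and 6.34% higher).

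The *Kcnn* genes encode the calcium-activated channels of small and intermediate conductance, of which the small ones contribute to the hyperpolarization after a spike in neurons. *Kcnn2* had 9.15, 9.17 and 9.10 in controls and 8.70, 8.87 and 8.95 in mutants. The controls were close and every mutant lay below them. The difference was -0.30 (standard error 0.08, interval -0.48 to -0.12, adjusted p = 0.495 from limma), with an unadjusted p under 0.05 in all 15 alternative settings. *Kcnn1* had 8.42, 8.50 and 8.43 in controls and 8.16, 8.35 and 8.32 in mutants, with a difference of -0.17 (standard error 0.07, adjusted p = 0.670), or -0.11 without mutant replicate 5. *Kcnn3*, named after its values were seen, had 9.84, 9.57 and 9.57 in controls and 9.46, 9.55 and 9.56 in mutants. Without control replicate 2, the high array, its difference of -0.14 became -0.05. *Kcnn4*, a channel mainly of non-neuronal cells and below the background level, had 7.06 to 7.39 and 7.09 to 7.35, a difference of -0.05. All 4 *Kcnn* genes thus had lower means in mutants, as did 11151 of all 22180 genes. The 4 genes kept this direction with quantile normalization and with median centring, settings that leave out no array. An unadjusted p under 0.05 was found for *Kcnn2* and *Kcnn1*, and 7.32% of all genes had one. *Kcnn1* had such a p in 8 of 15 alternative settings, and not with median centring.

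*Kcnt2*, which encodes a sodium-activated relative, differed the other way. It had 8.20, 8.30 and 8.28 in controls and 8.41, 8.61 and 8.45 in mutants, with all mutants above all controls. The difference was 0.23 (standard error 0.07, adjusted p = 0.548), and the unadjusted p stayed under 0.05 in 15 of 15 alternative settings. Its relative *Kcnt1* had 8.33 to 8.48 and 8.32 to 8.51, a difference of -0.01 (interval -0.19 to 0.16). *Kcnma1*, the pore of the large-conductance channel, had 9.72, 9.70 and 9.94 in controls and 9.79, 9.97 and 10.05 in mutants, a difference of 0.15 (interval -0.07 to 0.37). The groups overlapped, and the difference was 0.10 without mutant replicate 7 and 0.23 without control replicate 4. Of the 4 *Kcnmb* genes for its beta subunits, 3 had lower and 1 had higher means in mutants, from -0.05 for *Kcnmb4*, the neuronal beta subunit, to 0.13 for *Kcnmb2*. *Kcnu1* had 0.13 (adjusted p = 0.780) at levels below background, and 0.07 without mutant replicate 6.

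Of the inward rectifiers, *Kcnj5* and *Kcnj3* encode subunits of the channel opened by G protein beta-gamma subunits, best known in atrial muscle. *Kcnj5*, just above the background level, had 7.41, 7.36 and 7.30 in controls and 7.66, 7.44 and 7.58 in mutants. The lowest mutant lay just above the highest control, and the difference was 0.20 (standard error 0.07, adjusted p = 0.590). *Kcnj3* had 9.62 to 9.88 and 9.77 to 9.79, a difference of -0.0015 with an interval from -0.19 to 0.18, and *Kcnj6*, a neuronal partner of *Kcnj3*, had 0.02 (interval -0.20 to 0.24).

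*Kcnj11* forms the pore of the ATP-sensitive channel, together with the sulfonylurea receptor of *Abcc8*. *Kcnj11* had 9.38, 9.24 and 9.26 in controls and 9.22, 9.10 and 9.21 in mutants, a difference of -0.11 (standard error 0.07, adjusted p = 0.777), which was -0.07 without control replicate 2 or mutant replicate 6. *Abcc8*, named after its values were seen, had 10.12, 9.87 and 9.65 in controls and 9.57, 9.58 and 9.63 in mutants. Both genes were lower in every mutant than in every control, as were 6.93% of all genes. The gaps were narrow, between 9.22 and 9.24 for *Kcnj11* and between 9.63 and 9.65 for *Abcc8*. An unadjusted p under 0.05 was found in 0 of 15 alternative settings for *Kcnj11* and in 7 of 15 for *Abcc8*. The controls of *Abcc8* were wide, and its difference of -0.29 (standard error 0.11, adjusted p = 0.646) became -0.17 without control replicate 2.

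*Kcnj10*, the main inward rectifier of astroglia, had 9.37, 9.67 and 9.63 in controls and 9.30, 9.45 and 9.49 in mutants, a difference of -0.14 (standard error 0.10, adjusted p = 0.808). The groups overlapped, and the difference was -0.24 without control replicate 2, -0.08 if mutant replicate 5 was left out and -0.09 without control replicate 3. *Aqp4*, the astrocyte water channel, had a difference of 0.25 (standard error 0.10, adjusted p = 0.656) at levels below background. Its groups overlapped, and its unadjusted p was under 0.05 in 9 of 14 alternative settings. The 9 genes of the astrocyte list, *Aqp4* among them, went both ways. Of these, 7 had higher and 2 lower means in mutants, with differences from -0.29 to 0.26. *Kcnj2* had 8.18 to 8.72 and 8.04 to 8.37, a difference of -0.22 (standard error 0.14, adjusted p = 0.801), with -0.37 without control replicate 2, -0.12 if mutant replicate 5 was left out and -0.10 without control replicate 3.

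None of the 13 K2P genes had an unadjusted p under 0.05, and the groups overlapped for each. Over all genes, 7.32% had such a p and 13.3% had fully separate groups. The differences of the K2P genes lay between -0.05 and 0.20. *Kcnk9*, an acid-sensitive leak channel of neurons, had 8.23, 8.63 and 8.67 in controls and 8.69, 8.79 and 8.64 in mutants. Only control replicate 2 stood apart, and without it the difference of 0.20 (standard error 0.12, adjusted p = 0.777) became 0.06. *Kcnk2*, a leak channel opened by membrane stretch, had 9.25 to 9.45 in controls and 9.32 to 9.57 in mutants (difference 0.12, interval -0.09 to 0.32, adjusted p = 0.831). The difference was 0.05 without mutant replicate 6, and 0.18 without control replicate 3 or mutant replicate 5. *Kcnk13*, a leak channel of microglia, had 0.09 (adjusted p = 0.867), and *Kcnk18*, of sensory neurons and below the background level, had 0.08 (adjusted p = 0.847). Without mutant replicate 7 or control replicate 2 *Kcnk13* had 0.04 (0.14 without mutant replicate 6), and *Kcnk18* had 0.03 without control replicate 3. *Kcnk1* had 9.78 to 10.10 and 9.93 to 10.13, with an interval of the difference from -0.16 to 0.29.

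*Kcnq1ot1*, named after its values were seen, is a long noncoding RNA that runs antisense to *Kcnq1* and silences neighboring genes on the paternal chromosome. It had 9.19, 9.27 and 9.29 in controls and 9.38, 9.55 and 9.45 in mutants. The mutants lay above every control, with a difference of 0.21 (standard error 0.07, adjusted p = 0.555). *Kcnq1* itself, below the background level, had 7.05 to 7.24 and 6.95 to 7.30, a difference of -0.06. The antisense RNA *Kcnd3os* had a difference of -0.07.

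Of the wider lists, 3 of 19 measured channel partners had an unadjusted p under 0.05 (7.32% of all genes did), 2 higher (*Lgi1* and *Dpp6*) and 1 lower (*Abcc8*), with a median of 0.02. Of 12 measured genes for ion transport, 2 had an unadjusted p under 0.05, both higher (3.51% of all genes were), with a median of 0.07, and 0 did without control replicate 2, control replicate 3 or mutant replicate 7. They were *Aqp4* and *Slc12a5*. *Slc12a5*, the chloride extruder of maturing neurons, had 8.42, 8.39 and 8.51 in controls and 8.64, 8.54 and 8.67 in mutants (difference 0.18, standard error 0.06, adjusted p = 0.603). None of these genes passed an adjusted p of 0.05 in limma.

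The stretch around the start site is printed for 4 of the 12 genes with an unadjusted p under 0.05. *Kcnip2* had the smallest p, and *Kcns1*, *Kcnj5* and *Kcnh5* were the 3 that held a motif among the 8 whose promoter was scanned. The motifs are common, in 17.2% (CAGATG), 16.2% (CTTTGA) and 6.59% (GGACAGC) of 27025 promoters. Whether 3 of 8 exceeds the share with any of them was not tested. Promoters came from RefSeq (GRCm38.p6) and ran from 250 bases before to 50 after the start. Capitals mark a match on either strand to CAGATG, the E-box of neuronal bHLH factors, to CTTTGA, of TCF and LEF factors, or to GGACAGC, a part of the element bound by the repressor REST.
Kcnip2, chr19:45816014-45816313, minus strand: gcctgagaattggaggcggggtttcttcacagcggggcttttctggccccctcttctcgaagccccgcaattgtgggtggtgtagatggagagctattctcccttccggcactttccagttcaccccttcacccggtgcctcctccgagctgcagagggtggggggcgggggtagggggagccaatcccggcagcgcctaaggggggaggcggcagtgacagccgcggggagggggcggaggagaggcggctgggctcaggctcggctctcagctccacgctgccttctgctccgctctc
Kcns1, chr2:164171064-164171363, minus strand: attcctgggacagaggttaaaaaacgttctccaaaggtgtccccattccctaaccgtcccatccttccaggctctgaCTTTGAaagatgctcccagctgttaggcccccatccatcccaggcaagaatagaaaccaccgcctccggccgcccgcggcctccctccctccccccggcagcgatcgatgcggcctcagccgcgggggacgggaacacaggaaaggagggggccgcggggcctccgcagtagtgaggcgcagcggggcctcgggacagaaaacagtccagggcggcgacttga
Kcnj5, chr9:32344295-32344594, minus strand: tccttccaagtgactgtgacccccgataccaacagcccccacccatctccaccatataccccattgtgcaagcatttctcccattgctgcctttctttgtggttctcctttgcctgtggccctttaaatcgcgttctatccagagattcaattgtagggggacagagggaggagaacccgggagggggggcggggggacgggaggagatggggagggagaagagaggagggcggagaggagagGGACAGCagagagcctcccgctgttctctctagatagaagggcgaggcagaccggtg
Kcnh5, chr12:75177283-75177582, minus strand: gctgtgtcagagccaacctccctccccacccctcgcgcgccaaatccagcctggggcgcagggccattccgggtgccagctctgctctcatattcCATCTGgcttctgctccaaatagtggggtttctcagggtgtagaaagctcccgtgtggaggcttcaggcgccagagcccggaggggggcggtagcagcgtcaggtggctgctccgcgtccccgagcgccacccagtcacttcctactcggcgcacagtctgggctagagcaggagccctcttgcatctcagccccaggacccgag

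CTTTGA stood in *Kcns1*, GGACAGC in *Kcnj5* and CATCTG, the other strand of the E-box, in *Kcnh5*, and none of the 3 was in *Kcnip2*. Chromosome 18, which holds *Kcnn2*, was left out of the scan, and only the first listed start of each gene was used. Promoters were scanned for 66 of the 86 coding genes. GGACAGC was in 10 of them (15.2%), against 6.59% of 27025 promoters of the same length, among them those of *Kcnj5*, *Kcnip3* and *Kcnk1*. CAGATG was in 12 (18.2%, against 17.2%) and CTTTGA in 6 (9.09%, against 16.2%). The 66 promoters had a higher median share of G and C than the 27025, and the 3 motifs differ in their letters. The part of this composition in the motif shares was not tested. A match describes the letters and is not a binding site.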

How the data were processed

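RNA of dorsal cortex from 3 control and 3 *Gsk3:Neurod6* E18 embryos was hybridized to Affymetrix Mouse Gene 2.0 ST arrays, 1 per embryo. Using Partek Genomics Suite (6.12.0712, from the submitters' processing notes), the authors made and deposited log2 values for 41345 transcript clusters. Probe summary, normalization and genome build are not given in the sources used here. From the 23521 clusters that carry 1 symbol, the cluster of highest mean represented each of 22180 genes. No further normalization was applied. Mutants and controls were compared in R (4.3.3) by a linear model in limma (3.58.1) with moderated spread, two-sided, without covariates, with Benjamini-Hochberg adjustment over all genes. The model was tested on simulated data. With 3 embryos in either group, 0.1 is the smallest two-sided p of an exact permutation test, and fully separate groups reach it. The number of arrays limits the precision.

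The members and lists were chosen with earlier results of these data known. Named genes were the 8 Kv genes and the 4 genes of every other family with the smallest p, genes chosen for their role, and the 2 of smallest p in the lists of partners and transport. *Kcnq1ot1*, *Kcnq1*, *Kcnd3os*, *Kcnn3*, *Kcnn4*, *Kcnd1*, *Kcnd3*, *Kcnip1*, *Kcnip3*, *Kcne1l*, *Kcna6*, *Kcnf1*, *Kcnh8*, *Kcnmb2*, *Kcnmb4*, *Dpp10* and *Abcc8* were named after their values were seen. All 88 gene IDs matched RefSeq (GRCm38.p6). Alternatives covered normalization, dim genes, clusters per gene, the variance model, array weights, moderation, *Xist* as a covariate and each array left out.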

Additional observations from a re-analysis of the deposited data

How the results depend on the processing

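Across 15 alternative settings, 0 of the 88 potassium channel genes passed an adjusted p of 0.05 and 0 reached 1.5-fold. Each channel gene named for its p kept its direction in every setting that tested it, whereas the small differences of *Kcna2*, *Kcnc1*, *Kcnt1*, *Kcnab2*, *Kcnj3*, *Kcnj6*, *Kcnk1* and *Kcnip1* turned sign in some. At an unadjusted p under 0.05 were *Kcnip2*, *Kcnn2*, *Kcnt2* and *Kcng3* in 15 of 15 settings, *Kcnq1ot1* in 14, *Kcnj5* in 12, *Kcnab3* in 10, *Kcns1* in 10 of 14, and *Kcnb2*, *Kcnh5*, *Kcnab1* and *Kcnn1* in 8. The 12 genes at an unadjusted p under 0.05 became 7 (3 lower) without moderation of the spread, when 6.93% of all genes had such a p, and 7 to 14 with 1 array left out. The higher genes became 2 to 9 with 1 array left out (2 without control replicate 2, 3 without mutant replicate 7) and the lower genes 3 to 6 (3 without mutant replicate 5). Of the ion transport genes, 1 had such a p without dim genes and 1 without moderation, and 0 to 4 with 1 array left out (0 without control replicate 2, control replicate 3 or mutant replicate 7, 1 without mutant replicate 5, and 4 without control replicate 4).

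The median difference of the Kv genes became 0.0573 with array weights and that of the auxiliary subunits -0.006 without dim genes. With 1 array left out, the medians ranged from 0.0215 (without control replicate 2) to 0.0573 for Kv, -0.1021 (without control replicate 3) to 0.0274 for KCa, -0.0372 (without control replicate 2) to 0.0458 for Kir, and 0.0249 (without control replicate 3) to 0.0797 for K2P. They ranged from -0.0107 (without mutant replicate 7, and -0.0022 without mutant replicate 5) to 0.0283 for the auxiliary subunits, and from 0.0151 (without control replicate 2) to 0.0418 for all 88 genes. The 99th percentile of receptor genes as the background level left 24 of the 88 genes above it (27.3%, against 33.6% of all genes), 10 Kv, 3 KCa, 3 Kir, 3 K2P and 4 auxiliary. No paired analysis was possible because controls and mutants share no replicate numbers. The causes of these shifts were not tested. Genes below the background level could hide a difference.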

Other observations

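For 7 of the 88 potassium channel genes the array carried a second, dimmer cluster, 4 of them above the background level. The dimmer cluster of *Kcnab3*, below it, had 7.18 in controls and 7.21 in mutants, a difference of 0.03 where the brighter cluster had -0.24. For *Kcnma1* the differences were 0.15 in both clusters, but the dimmer one lay below the background level and was wide. It had 7.30, 6.46 and 6.58 in controls and 6.60, 7.43 and 6.74 in mutants. The differences were 0.11 and 0.09 for *Kcna6* (dimmer and brighter) and 0.09 and 0.08 for *Kcna4*. The dimmer cluster had 0.08 for *Kcnj3*, 0.03 for *Kcnmb4* and -0.02 for *Kcnq5* (below the background level), against -0.0015, -0.05 and 0.05.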
